A study of Mus musculus with 6 samples.

Results

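The genes described here carry glucose and its precursors through the proximal tubule of the mouse kidney and make new glucose there. They are Slc5a2, Slc5a1, Slc5a8, Slc5a12, Slc2a2, Pcx, Pck1, Fbp1, G6pc and Slc37a4. They were chosen by symbol as transporters and enzymes of these steps, 10 of the 34714 genes in the deposited table, and all 10 were found. Kidney RNA was sequenced from mice fed normal chow and 8 weeks of age, in 3 wild-type samples (titles C57) and 3 labelled Hspa8 knockout. Hspa8 encodes HSC70, the constitutive cytosolic HSP70 chaperone, and the series asks how it acts on SREBP-driven lipid accumulation in tubular cells in diabetic kidney disease. No sample here is diabetic or carries a treatment, so the labels set the groups apart by genotype only. Anything that goes with genotype, such as strain background, cannot be told apart from it.

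The protocol lists floxed Hspa8 mice and Cdh16-Cre mice, whose Cre is driven by a promoter of tubule epithelium, on C57BL/6J; the sample labels give neither allele, and the knockout titles name no strain. Cells outside the tubule, and tubule cells that escaped Cre, would keep Hspa8. Whether the samples of a group are separate animals is not stated, so p-values measure only how these samples scatter, which may be technical. In bulk kidney RNA, fewer cells of a type and less RNA per cell cannot be told apart.

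The proximal tubule takes back nearly all filtered glucose. SGLT2 (Slc5a2) in the early segments and SGLT1 (Slc5a1) in the late segment bring glucose in with sodium at the apical membrane, and GLUT2 (Slc2a2) lets it out towards the blood. The same cells make glucose from lactate, glutamine and glycerol: pyruvate carboxylase (Pcx), PEPCK-C (Pck1), fructose-1,6-bisphosphatase (Fbp1) and glucose-6-phosphatase (G6pc, fed by the carrier Slc37a4) run the steps that get round the irreversible reactions of glycolysis. SMCT1 (Slc5a8) and SMCT2 (Slc5a12) bring lactate in from the filtrate.

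Values are FPKM, fragments scaled to transcript length and to the mapped total, so levels of different genes can be compared per length; the depth of the libraries is unknown. Where 3 values of a genotype are listed, they are replicates 1, 2 and 3 in that order. FPKM summed to between 381586 and 417123 per library, and 20715 to 21277 genes were above 0. Hspa8 had 61.4% of its wild-type mean in the knockout libraries, with no overlap of the groups (650 to 781 against 1058 to 1318 FPKM), and did not pass over all genes (log2 fold change -0.70, limma adjusted p = 0.866). All 15 proximal tubule markers passed the filter of a mean of at least 1 FPKM, and they summed to 47490 to 52550 (wild-type) and 40750 to 51880 FPKM (knockout), most of it Kap. Libraries stood apart in ways that the genotype does not give. On the first principal component (47.5% of the variance) wild-type replicate 3 and knockout replicate 2 lay at one end. The immediate early gene Fos had 1.11 and 1.29 FPKM in wild-type replicate 1 and knockout replicate 1 and 11 to 30.0 FPKM in the other libraries.

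None of the 10 genes differed between knockout and wild-type kidneys beyond the spread between libraries. All 10 passed the filter, and 0 of 10 had an adjusted p under 0.05 in limma over the 12174 tested genes, as did 0% of all tested genes. At an unadjusted p under 0.05 there were 0 of the 10 and 629 of all tested genes (5.17%). The 3 values of one group lay wholly above those of the other for 0 of the 10, against 10.6% of all genes. The log2 fold change was above 0 for 7 of the 10, against 35.1% of all tested genes, and below 0 for 3. Their median was 0.036, and that of all tested genes was -0.04. Counts of genes above and below 0 in the lists further on are to be read beside that 35.1%. The median of all tested genes depended on the scaling. It was -0.0005 with library sums equalised, 0.0096 with library medians equalised and -0.041 with the proximal tubule marker mean equalised. In each of these settings 7 of the 10 were above 0, and the share of all tested genes was not recounted. Adjusted p-values of the 10 (limma) ran from 0.995 to 0.998, and the exact two-sided permutation test, which cannot go below 0.1 with 3 against 3, gave 0.4 or more for each.

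**Figure D1:**
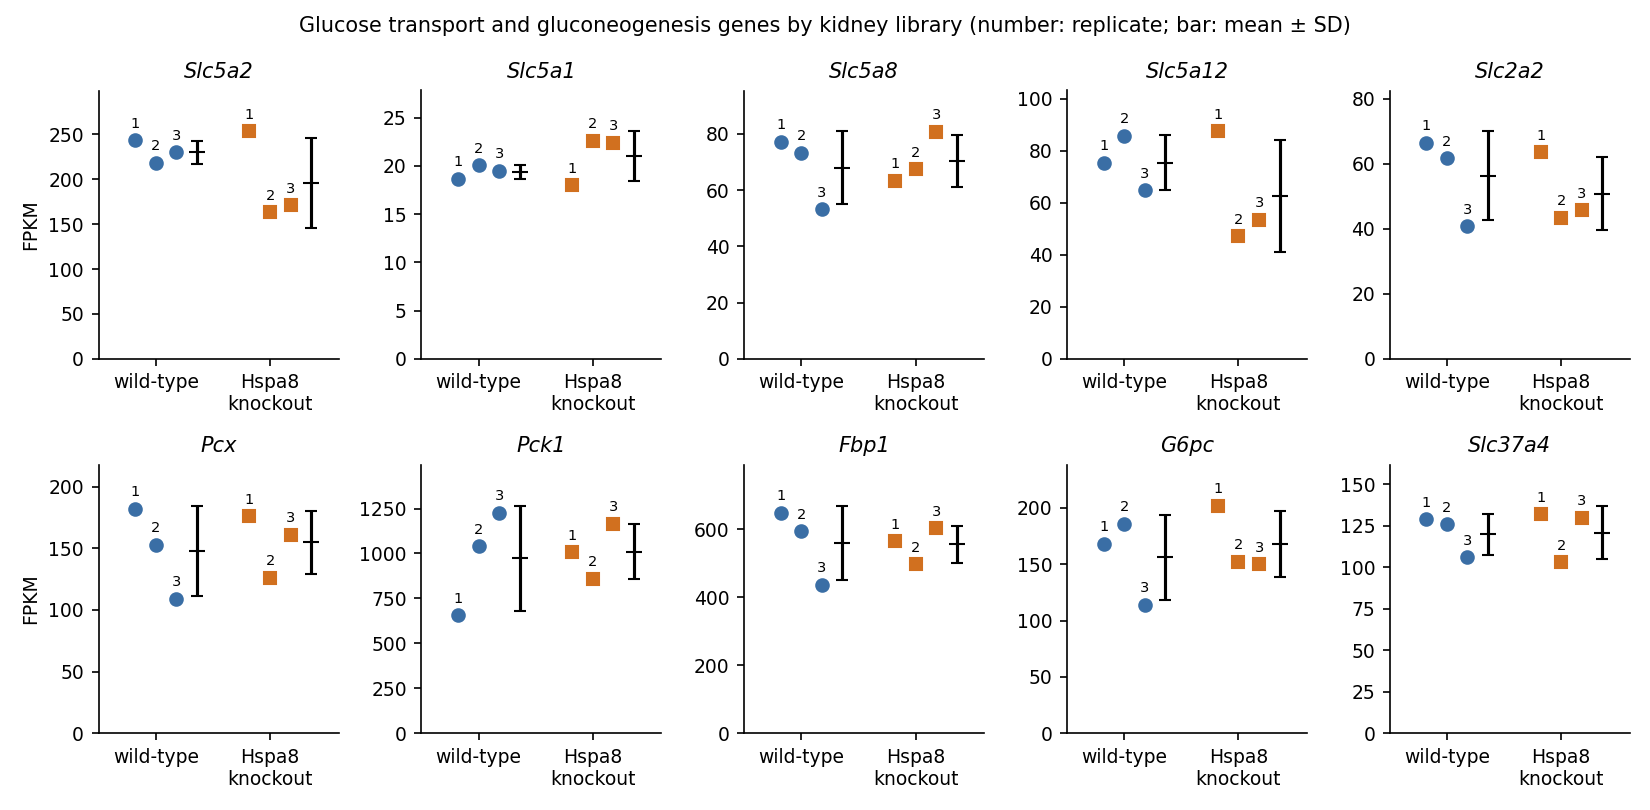
FPKM of the 10 genes in each kidney library (y axis, from 0), with wild-type libraries as circles and Hspa8 knockout libraries as squares, numbered by replicate, and mean ± SD (n = 3) as bars. The groups overlap for every gene. In Slc5a2, Slc5a12 and Slc2a2 knockout replicate 1 sits with the higher wild-type libraries, above knockout replicates 2 and 3.

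Levels per length spanned a wide range. Averaged over the 6 libraries, Pck1 was highest at 992 FPKM, then Fbp1 at 557, Slc5a2 at 213, G6pc at 162, Pcx at 151, Slc37a4 at 121, Slc5a8 at 69.1, Slc5a12 at 69.0, Slc2a2 at 53.6 and Slc5a1 at 20.2 FPKM. Pck1 was above Fbp1, and Fbp1 above Slc5a2, with no overlap of their ranges. G6pc was above Pcx in 4 of 6 libraries and Slc5a8 above Slc5a12 in 3 of 6, so neither pair has an order beyond its spread. The remaining neighbours kept their order in all 6 libraries, though the ranges of Slc5a2 and G6pc, of Pcx and Slc37a4, and of Slc5a12 and Slc2a2 overlapped.

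The main apical glucose transporter, Slc5a2 (chromosome 7, 128265683 to 128272430, RefSeq GRCm38.p6), split the knockout libraries. It had 243, 218 and 230 (wild-type) against 253, 163 and 171 FPKM (knockout). Knockout replicate 1 was the highest of all 6 libraries, and knockout replicates 2 and 3 were the lowest. The means were 230 ± 12.7 (wild-type) and 196 ± 49.9 FPKM (knockout; SD, n = 3 each). The log2 fold change was -0.26 (standard error 0.164), with 95% limits of -0.64 to 0.12, which spans folds of 0.642 to 1.08 (limma adjusted p = 0.995). Its end overlaps Rusf1 on the opposite strand over 1052 bases (128271379 to 128272430), and without stated strand counting their reads there cannot be told apart. Rusf1 itself was low, at 13.0 to 19.1 FPKM.

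Slc5a1 (chromosome 5, 33104219 to 33162699), the high-affinity transporter that catches what SGLT2 leaves, showed the opposite order at a far lower level. It had 18.7, 20.1 and 19.5 (wild-type) against 18, 22.6 and 22.4 FPKM (knockout). Knockout replicates 2 and 3 were the highest and knockout replicate 1 the lowest, so the groups overlapped. The log2 fold change was 0.10 (standard error 0.104; 95% interval -0.14 to 0.34; limma adjusted p = 0.998). The ratio of Slc5a2 to Slc5a1 was 13.0, 10.8 and 11.8 (wild-type) against 14, 7.22 and 7.61 (knockout) (exact two-sided permutation p = 0.4).

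Slc5a12 (chromosome 2, 110597299 to 110649345), the low-affinity lactate cotransporter of the early segment, was ordered much as Slc5a2. It had 75.4, 85.9 and 64.8 (wild-type) against 87.5, 47.1 and 53.6 FPKM (knockout), again with knockout replicate 1 highest and knockout replicates 2 and 3 lowest. Its log2 fold change of -0.30 was the largest of the 10 in size, with a standard error of 0.218 and a 95% interval of -0.81 to 0.20 (limma adjusted p = 0.998). Slc5a8 (chromosome 10, 88885992 to 88929515), the high-affinity form, had 77.1, 73.3 and 53.2 (wild-type) against 63.2, 67.3 and 80.7 FPKM (knockout). Here wild-type replicate 3 was lowest and knockout replicate 3 highest, and the log2 fold change was 0.06 (standard error 0.156). The level of Slc5a12 relative to Slc5a8 was 0.977, 1.17 and 1.22 (wild-type) against 1.38, 0.70 and 0.664 (knockout) (exact two-sided permutation p = 0.4).

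Basolateral exit through Slc2a2 (chromosome 3, 28697903 to 28728361) stood at 66.5, 61.7 and 40.9 (wild-type) against 63.6, 43.4 and 45.7 FPKM (knockout). Knockout replicates 2 and 3 were low together with wild-type replicate 3, and all 3 knockout values lay within the wild-type range. The log2 fold change was -0.14 (standard error 0.206; 95% interval -0.61 to 0.34; limma adjusted p = 0.998).

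The overlap of 3 transporters rested on 1 knockout library. Without knockout replicate 1, the groups of Slc5a2, Slc5a1 and Slc5a12 no longer overlapped, 3 of the 10 genes, while 17% of all tested genes were then apart. Their log2 fold changes became -0.46, 0.20 and -0.57, with limma adjusted p = 0.9997 for each. The same 3 genes were apart when wild-type replicate 1, the other library low in Fos, was left out along with it, a setting in which 29.7% of all tested genes were apart. Slc37a4 alone of the 10 was apart without knockout replicate 2, and also without that library and wild-type replicate 3, against 28.1% and 38% of all tested genes.

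Some other genes of the early proximal tubule were ordered across the libraries much as Slc5a2 and Slc5a12, and others were not. Gatm, which makes the creatine precursor in these cells, had 389, 353 and 292 (wild-type) against 412, 248 and 266 FPKM (knockout). Slc7a7, a basolateral carrier of cationic amino acids, had 81.2, 74.1 and 62.8 (wild-type) against 84.6, 54.4 and 55.4 FPKM (knockout). For both genes knockout replicate 1 was highest and knockout replicates 2 and 3 lowest. In all, knockout replicates 2 and 3 were the lowest libraries for 3 of the 7 markers of the early (S1) segment. Slc13a3, a dicarboxylate carrier among them, had 209, 195 and 188 (wild-type) against 239, 211 and 242 FPKM (knockout), with every knockout value the higher. Of the 7 markers 0 passed, and their mean log2 level relative to the 6 libraries was 0.174, 0.069 and -0.197 in wild-type and 0.28, -0.219 and -0.107 in knockout replicates 1, 2 and 3. Of 8 markers of the late (S3) segment 0 passed. Their mean was -0.0987, 0.0102 and 0.141 in wild-type and -0.256, 0.296 and -0.0932 in knockout replicates 1, 2 and 3. Summed, the S1 markers had 2982 to 3547 (wild-type) and 2903 to 3711 FPKM (knockout) and the S3 markers 2819 to 2981 and 2858 to 3314 FPKM, with none at 0 in all libraries. The part of these markers in the transporter values was not tested.

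**Figure D2:**
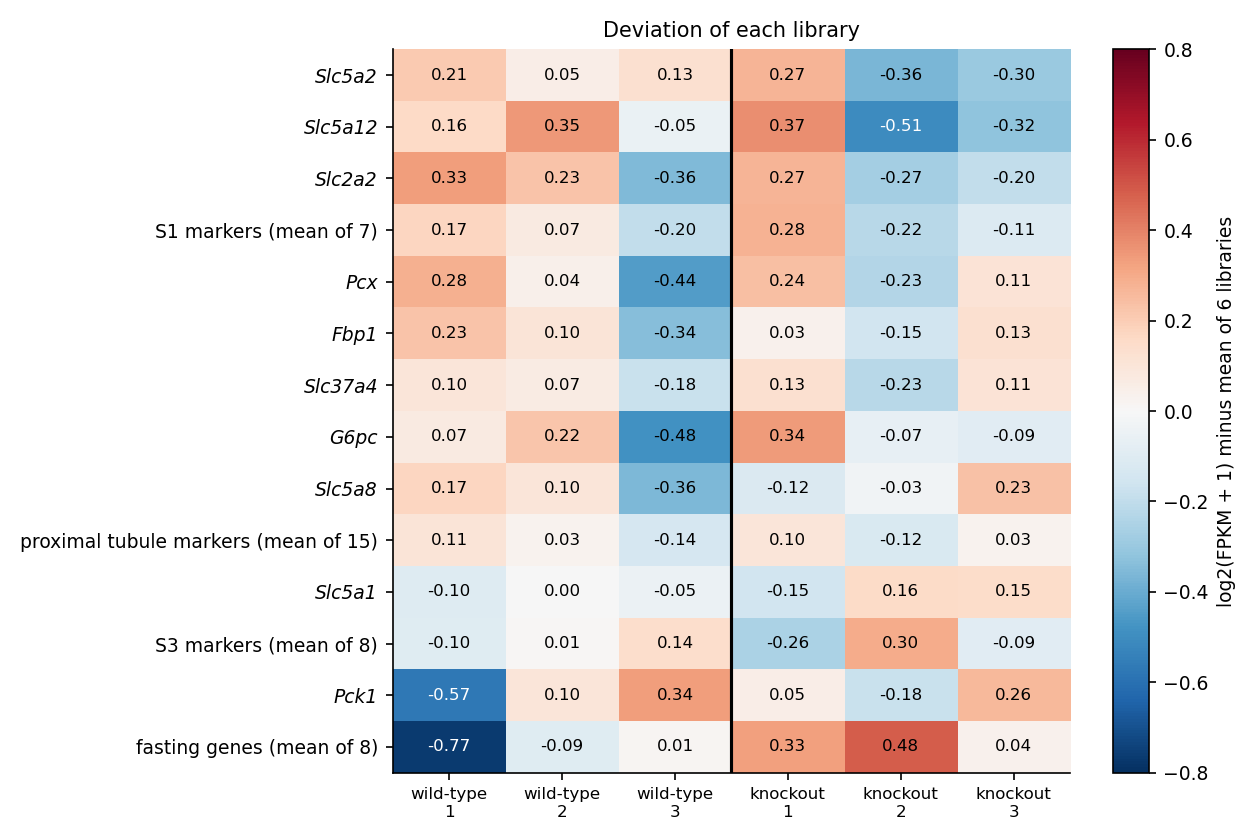
Each cell gives log2(FPKM + 1) of a gene, or of the mean of a marker list, in 1 library (columns; wild-type left of the line, knockout right) minus the mean over the 6 libraries, from blue (below) to red (above). Slc5a2, Slc5a12 and Slc2a2 have low values in knockout replicates 2 and 3, as does the mean of the S1 markers. Slc2a2 is lowest in wild-type replicate 3 (-0.356), as are Pcx, Fbp1, G6pc and Slc5a8. In that library the S1 mean is -0.197 and Slc5a2 is 0.13. Pck1 is lowest in wild-type replicate 1.

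Pcx (chromosome 19, 4510472 to 4621752), the mitochondrial enzyme that turns pyruvate into oxaloacetate, had 182, 153 and 109 (wild-type) against 176, 126 and 161 FPKM (knockout). All knockout values fell within the wild-type range, and the low end was wild-type replicate 3. The log2 fold change was 0.08 (standard error 0.196; 95% interval -0.37 to 0.53; limma adjusted p = 0.998).

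Pck1, the enzyme that commits oxaloacetate to glucose, had its own order among the libraries. It had 655, 1040 and 1227 (wild-type) against 1007, 859 and 1165 FPKM (knockout). Wild-type libraries held both ends of the range, a 1.87-fold spread within that genotype, and the knockout libraries lay between them. The means were 974 ± 292 (wild-type) and 1010 ± 153 FPKM (knockout; SD, n = 3 each), with a log2 fold change of 0.09, a standard error of 0.227 and a 95% interval of -0.43 to 0.61, folds of 0.741 to 1.53 (limma adjusted p = 0.998). Without wild-type replicate 1 the log2 fold change was -0.17. Pck1 is known to answer to fasting and to acid load, and wild-type replicate 1 was also the lowest library for 5 of the 8 tested genes of the fasting response. Cpt1a, Acot1 and Plin2 were the other 3. Knockout replicate 2 was the highest library for 5 of the 8, while Pck1 was below its mean there. The mean log2 level of the 8 relative to the 6 libraries was -0.765, -0.0943 and 0.013 (wild-type) and 0.327, 0.483 and 0.0362 (knockout). For Pck1 it was -0.569, 0.0982 and 0.336 (wild-type) and 0.051, -0.178 and 0.262 (knockout). Pdk4, the kinase that spares pyruvate from oxidation, had 4.53 FPKM in wild-type replicate 1 and 15.2 to 36.6 FPKM in the other libraries. Angptl4, an inhibitor of lipoprotein lipase, had 15.1 FPKM in wild-type replicate 1 and 37.8 to 49.5 FPKM elsewhere. The clock output gene Dbp had 7.91 FPKM in wild-type replicate 1 and 21.0 to 29.5 FPKM elsewhere. Dbp is 1 of 12 clock genes looked at and was named after its values were seen. Their mean log2 level relative to the 6 libraries was -0.19 in wild-type replicate 1 and -0.0952 to 0.193 elsewhere. Not all were low there: Arntl had 6.14 FPKM in wild-type replicate 1 and 2.82 to 3.76 FPKM elsewhere. The 8 tested fasting genes all lay above 0 in log2 fold change, 0 passed, and the whole list summed to 346.7 to 465 (wild-type) and 484.7 to 645 FPKM (knockout). Their part in the Pck1 values was not tested.

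Fbp1 (chromosome 13, 62864753 to 62888298), which removes a phosphate from fructose 1,6-bisphosphate, had 648, 594 and 436 (wild-type) against 565, 497 and 603 FPKM (knockout). Its means were the closest of the 10, at 559 ± 110 FPKM and 555 ± 53.6 FPKM (SD, n = 3 each), and the log2 fold change was 0.01 with a 95% interval of -0.36 to 0.37 (limma adjusted p = 0.998). G6pc (chromosome 11, 101367716 to 101377903), the last enzyme before free glucose, had 168, 186 and 114 (wild-type) against 202, 152 and 150 FPKM (knockout). Wild-type replicate 3 was lowest and knockout replicate 1 highest, and the log2 fold change was 0.12 (standard error 0.196; 95% interval -0.33 to 0.57; limma adjusted p = 0.998). Slc37a4 (chromosome 9, 44396946 to 44402966), which carries glucose 6-phosphate to that enzyme in the endoplasmic reticulum, had 129, 126 and 106 (wild-type) against 132, 103 and 130 FPKM (knockout). Its log2 fold change was 0.01 with a 95% interval of -0.28 to 0.30 (limma adjusted p = 0.998).

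Wild-type replicate 3 was the lowest library for Pcx, Fbp1, G6pc, Slc5a8 and Slc2a2, and the lowest but one, after knockout replicate 2, for Slc37a4. Lrp2, the endocytic receptor megalin of the same cells, had 102 FPKM in that library and 111 to 181 FPKM in the others. That library was lowest for 7 of the 15 proximal tubule markers and highest for 4, among them Miox and Kap. Pck1 ran the other way, highest in wild-type replicate 3, so the ratio of Pck1 to G6pc ranged from 3.90 in wild-type replicate 1 to 10.8 in wild-type replicate 3, with knockout libraries at 4.98, 5.64 and 7.77. Without wild-type replicate 3, 2 of the 10 log2 fold changes were above 0, against 7 with all libraries. The 10 genes varied more between libraries than most: the median ratio of the highest to the lowest library was 1.59, against 1.28 for the 5523 genes with a mean of at least 10 FPKM, and 9 of the 10 were above that value.

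Pck1 (chromosome 2, 173153073 to 173159274) and G6pc are the classical hormone-driven genes of this pathway, and their unequal order across libraries is why the sequence before each start is shown. The promoter table, from RefSeq on GRCm38.p6, held 8 of the 10 genes. The sequences below run 5′ to 3′ on the plus strand, from 250 bases before the RefSeq start to the last base before a transcript annotated by GENCODE, chr2:173152823-173153047 for Pck1 and chr11:101367466-101367560 for G6pc, with capitals for the matches named below.
Pck1: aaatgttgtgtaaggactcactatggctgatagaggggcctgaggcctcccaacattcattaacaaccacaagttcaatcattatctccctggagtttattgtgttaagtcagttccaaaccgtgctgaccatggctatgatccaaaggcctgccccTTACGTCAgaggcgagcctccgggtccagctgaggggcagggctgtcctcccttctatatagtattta
G6pc: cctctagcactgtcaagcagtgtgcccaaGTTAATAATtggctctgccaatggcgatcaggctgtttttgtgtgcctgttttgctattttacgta

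In the 250 bases before each listed start, on both strands, the cyclic AMP response element TGACGTCA was in none of the 11 windows of the 8 genes and in 1.55% of all 32851 windows. The variant TTACGTCA, searched after the windows had been read, was in the Pck1 window, 93 to 86 bases before the start, and in 0.447% of all windows. The G6pc window holds ttacgtaa, which differs from that variant by 1 letter. That form was not searched over the windows, is left in small letters and runs past the end of the printed stretch. The HNF1 core GTTAATNAT, for a factor of proximal tubule identity, was in the G6pc window, 221 to 213 bases before the start, and in 0.737% of all windows. The FOXO site TGTTTAC (3.17% of all windows), the heat shock core GAANNTTC (6.69%) and the sterol element TCACNCCAC of the SREBPs (1.05%) matched none of the 11. TATAAA was in 2 of the 11, of G6pc and of 1 start of Slc37a4, and in 12.4% of all windows. No 2 matches overlap. A match is a description of letters, not of a bound site.

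**Figure D3:**
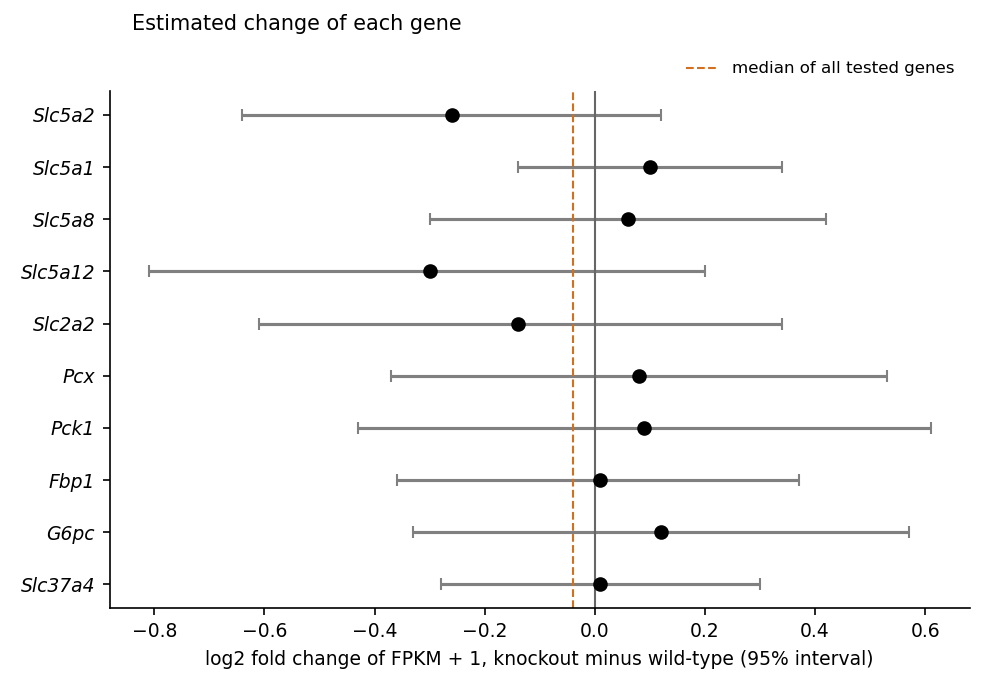
Log2 fold change of FPKM + 1, knockout minus wild-type (x axis), for each of the 10 genes with its 95% limma interval; the dashed line is the median of all 12174 tested genes (-0.04). Every interval includes 0. The narrowest are Slc5a1 (-0.14 to 0.34) and Slc37a4 (-0.28 to 0.30), the widest Pck1 and Slc5a12.

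The intervals set which changes these libraries leave possible. For Slc5a1 they span folds of 0.909 to 1.27, for Slc37a4 0.823 to 1.23, for Fbp1 0.781 to 1.29, for Slc5a8 0.813 to 1.34, for G6pc 0.798 to 1.49, for Pcx 0.771 to 1.44, for Slc2a2 0.656 to 1.26 and for Slc5a12 0.572 to 1.15. The median standard error of the 10 was 0.18 on the log2 scale, against 0.108 for all tested genes.

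The other genes of the pathway gave no call either, 0 in each of 6 lists over all genes by limma, in either direction. Among 13 tested further glucose carriers and partners of SGLT2, 7 were above 0 and 6 below, with a median log2 fold change of 0.002. Slc5a3, a sodium-coupled inositol carrier, had 15.6, 18.7 and 26.4 (wild-type) against 9.68, 15.9 and 12.7 FPKM (knockout), a log2 fold change of -0.62 (standard error 0.214, limma adjusted p = 0.941, groups overlapping by 1 library). Slc2a4, the insulin-responsive GLUT4, and Slc2a9, a urate carrier, each had a log2 fold change of 0.22, and Smim24, a small membrane protein, had -0.18. Slc5a10, another sodium-coupled sugar carrier of the proximal tubule, had 51.8 to 70.1 FPKM.

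Of 31 genes of substrate supply (lactate, pyruvate, glutamine and glycerol entry, shuttles and aminotransferases), 19 were above 0 and 12 below, with a median of 0.02. For 4 of them all knockout values lay above all wild-type values, against 2.01% of all genes. Those were Pdk4, Gpt, Got1 and Slc38a3. Pdk4 had a log2 fold change of 1.15 (standard error 0.449, limma adjusted p = 0.947). Gpt, an alanine aminotransferase, had 8.86 ± 0.994 (wild-type) and 10.5 ± 0.154 FPKM (knockout). Got1, the cytosolic aspartate aminotransferase, had 37.5 ± 2.07 FPKM and 42.3 ± 1.49 FPKM, and Slc38a3, the glutamine carrier of acid adaptation, 15.5 ± 1.00 FPKM and 18.2 ± 2.09 FPKM (SD, n = 3 each). Their limma adjusted p-values were 0.961, 0.973 and 0.973.

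The 8 enzymes that glycolysis and gluconeogenesis share had a median of -0.018, with 3 above 0 and 5 below. Among them Eno1 and Gpi1 had log2 fold changes of -0.04 and -0.08. Gapdh ran from 11.7 to 66.0 FPKM with the groups overlapping, and its many near-identical pseudogenes can share its reads. The 3 tested isozymes of the committed steps were all below 0 in log2 fold change (median -0.104), and far below the main forms in level. Pck2, the mitochondrial PEPCK, had 5.09 ± 0.159 (wild-type) and 4.59 ± 0.428 FPKM (knockout), so that Pck1 was 132 to 284 times Pck2 in a library, and Fbp1 was 47.0 to 93.6 times Fbp2. G6pc was 3.58 to 7.42 times G6pc3, the ubiquitous form. Of the 9 tested enzymes of the opposing glycolytic steps 7 were above 0, with Pfkm (0.18), Pfkfb4 (0.25), Hk1 (0.10) and Pklr (0.02) having the smallest p. Outside the substrate genes and the regulators, the knockout values lay wholly below the wild-type ones for Pck2 and the inositol carrier Slc5a11 and wholly above for Pfkm.

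Among the 6 pathway lists, the regulators of gluconeogenesis held the smallest p-values. Of 24 genes 7 were above 0 and 17 below, with a median of -0.051. Over all tested genes 35.1% were above 0 and the median was -0.04. For 4 of the 24 all knockout values lay below all wild-type values, against 8.57% of all genes. Foxo3, a factor that insulin keeps out of the nucleus, had 11.6, 11.2 and 12.5 (wild-type) against 8.72, 8.58 and 9.44 FPKM (knockout), a log2 fold change of -0.36 (standard error 0.0837, limma adjusted p = 0.866). Creb1, the cyclic AMP response factor, had 5.44, 5.02 and 5.34 (wild-type) against 3.88, 3.73 and 4.30 FPKM (knockout), a log2 fold change of -0.34 (standard error 0.0859, limma adjusted p = 0.866). Klf15, an amino acid and glucocorticoid responsive factor, and Irs1, an insulin receptor substrate, were the other 2, at log2 fold changes of -0.20 and -0.24. Of 9 markers of endothelium, all were below 0 in log2 fold change, 6 had every knockout value below every wild-type value, 0 passed, none was at 0 in all libraries, and they summed to 122.1 to 163.3 (wild-type) and 89.93 to 117.4 FPKM (knockout). All 6 tested fibroblast markers (median -0.333) and all 5 podocyte markers (median -0.302) were below 0 as well, and all 5 tested red cell genes above 0 (median 2.272), with 0 of either direction passing. The part of these markers in the values of the regulators was not tested. Hnf4a, a factor of proximal tubule maturation, ranged from 156 to 200 FPKM with overlapping groups.

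**Figure D4:**
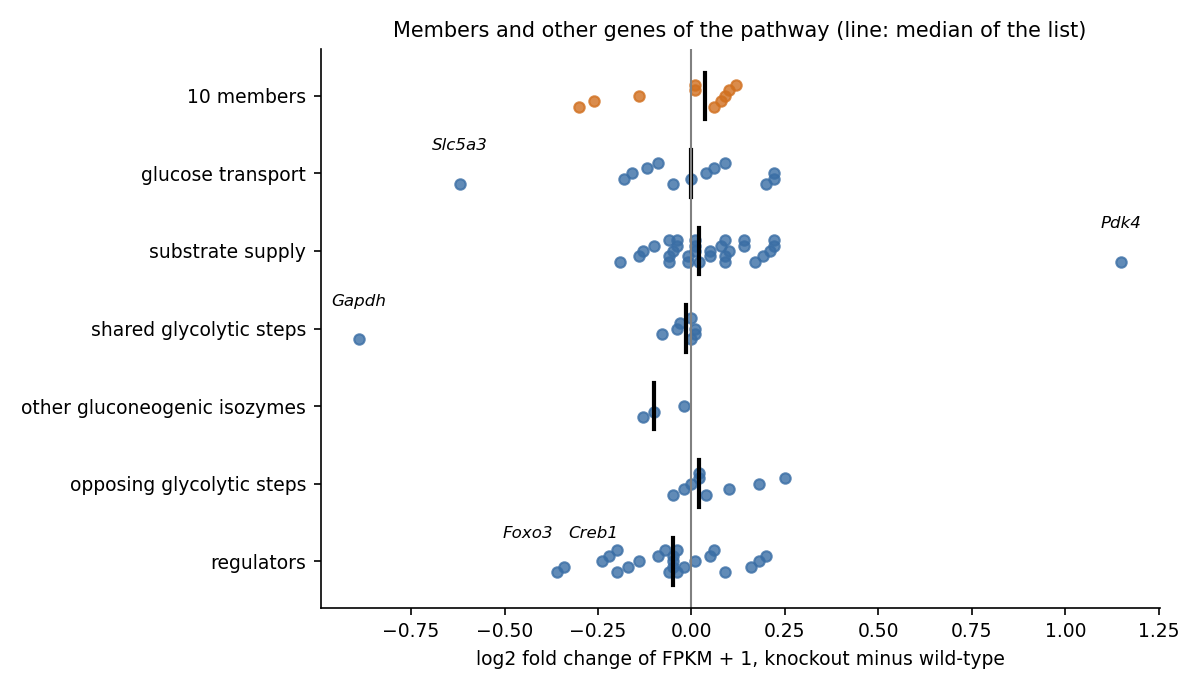
Log2 fold change of FPKM + 1, knockout minus wild-type (x axis), of each tested gene (points) in the 10 members and in 6 lists of other pathway genes, with the median of each list as a vertical line. Medians lie between -0.104 (other gluconeogenic isozymes) and 0.036 (members), and Slc5a3, Pdk4, Gapdh, Foxo3 and Creb1 are the named genes farthest from 0.

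Across the 6 libraries the tested genes outside the set whose values ran most like Slc5a2 were Slc3a2, the shared heavy chain of amino acid carriers (Pearson r = 0.993), Prpf4b (0.992) and Slc4a9 (0.984). For Pck1 they were Tns2 (0.952), Lrig3 (0.949) and Irx3 (0.946). Over these 6 libraries 76 genes had r of at least 0.9 with Slc5a2 and 15 with Pck1, and the points share each library's RNA and scaling.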

How the data were processed

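FPKM values were deposited by the authors as 1 table, so length and mapped total are already divided out. Builds GRCm38 and mm10 (the same assembly) are named per the submitters' processing notes; the sources used here do not name the aligner, quantifier, annotation or strand setting. Columns were matched to samples by title; A8 was read as the end of HSPA8. FPKM hold no read totals: genes under 0.1 FPKM showed no common step (at most 0.625% at one ratio), so depth and counting error are unknown. Genes with a mean of at least 1 FPKM (12174) went into limma 3.58.1 (R 4.3.3) as log2(FPKM + 1) (group only, trended empirical Bayes, two-sided, Benjamini-Hochberg over all tested genes, threshold 0.05). Fold changes are on the log2(FPKM + 1) scale, which understates low genes. Means, SDs and ratios are of FPKM. The fit was checked on simulated data. Members and gene lists were chosen with earlier results of these data known. All members are named; of each pathway list, the 4 tested genes with the smallest p, or all where fewer were tested, with other names chosen after their values were seen; 1 gene that this rule names is not reported here. Marker lists overlap (Gatm, Slc34a1 and Slc22a12 are proximal tubule and S1 markers; Slc7a7 and Pdk4 are also in the substrate list). Alternatives covered scaling, pseudocount, filter, variance model, replicate number and left-out libraries.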

Additional observations from a re-analysis of the deposited data

How the results depend on the processing

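None of the 10 genes was called by limma in any of 20 alternatives, in which their lowest adjusted p was 0.759. In the 11 planned settings that keep all libraries, 110 of 110 log2 fold changes kept their direction. Those of filter, variance model and replicate block leave the fold change of a gene as it is. Only those of scaling and pseudocount could have changed a direction. Leaving out 1 library at a time gave log2 fold changes from -0.102 to 0.162 for Slc5a8, -0.125 to 0.239 for Pcx and -0.172 to 0.280 for Pck1. The ranges were -0.164 to 0.122 for Fbp1, -0.0862 to 0.266 for G6pc and -0.0764 to 0.126 for Slc37a4. None of these genes has a set direction. The other 4 genes kept theirs, though Slc2a2 came to -0.00306 without wild-type replicate 1. The cause was not tested. Leaving out 1 library at a time also gave 0 to 3 of the 10 genes with groups apart, where 17% to 28.1% of all tested genes were. It gave 0 to 5 calls over all genes, the 5 being globin genes without knockout replicate 2. Chosen after seeing the data, leaving out wild-type replicate 3 and knockout replicate 2 together gave -0.0738 for Slc5a8, -0.0870 for Fbp1 and -0.0219 for G6pc, 1 of the 10 with groups apart (Slc37a4; 38% of all tested genes) and 5 calls over all genes. Leaving out wild-type replicate 1 and knockout replicate 1 together gave -0.175 for Pck1 and 3 of the 10 apart (29.7% of all tested genes). Equalising the mean of the S1 markers, also added, gave 11 calls over all genes, 1 of them (Pdk4) in the substrate list. In that setting 88 genes had an unadjusted limma p under 0.05, against 629 in the main fit. Standard errors of the 10 genes became nearly equal, 0.2456 to 0.2547 against 0.104 to 0.2267 in the main fit. The 11 calls are therefore not read as changes of those genes. The fit with a replicate block called 0 genes. It cannot move the fold changes or the median of the 10 (0.0364), since both genotypes hold each number. Deviations of same-numbered libraries correlated at r = 0.307, -0.215 and -0.321 for numbers 1, 2 and 3. Wild-type replicate 3 and knockout replicate 2 correlated at r = 0.55. Whether a number stands for a shared batch is not stated, and these values cannot tell. Unknown depth leaves the counting error of each value unknown.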
